A study of Homo sapiens with 13 samples.

Results

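The postsynaptic scaffold genes described here are 9 genes of the postsynaptic density, the protein mesh beneath the receptors of excitatory synapses: SHANK1, SHANK2, SHANK3, HOMER1, HOMER2, HOMER3, DLG2, DLG4 and DLGAP1. They were chosen by symbol, and all 9 were found in both deposited count tables, which together list 60639 genes. The RNA came from an established human embryonic stem cell line, H9, in which doxycycline switches on an added NEUROG2 gene, and the labels describe the product as excitatory neurons that no longer divide. Each library came from the total RNA of 1 culture well, and all cultures but that of day 0 had 2 days in E8 stem cell medium followed by 3N neural medium.

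In the doxycycline set, sequenced in 1 run, a single library was made from cells at day 0, from cells given doxycycline at 1 µg/ml for 5 days, from cells grown for 5 days without it, from cells given doxycycline for 11 days and from cells grown for 11 days without it. In the FGF2 set, sequenced in another run, every culture received doxycycline at 1 µg/ml for the first 6 days, and each of the 4 groups had 2 libraries. The day-6 FGF2 cells (early FGF2) had FGF2 at 20 µg/ml, as the labels give it, together with doxycycline for those 6 days, and the day-6 control cells had doxycycline alone. The day-12 FGF2 cells (late FGF2) had 6 further days in 3N medium with FGF2 and without doxycycline, and the day-12 control cells had the same 6 days without FGF2. All 13 libraries carry the inducible gene, and no library had doxycycline without it, so NEUROG2 and doxycycline itself cannot be told apart. In their titles all doxycycline-set cells are named hES-N1, and the FGF2-set cells hES-N2G1 (replicate 1 of each group) or hES-N2G2 (replicate 2), while the source label of every library names hES-N1, derived from H9. Whether these names mark separate clones, cultures or lines is not stated, so p-values measure only the spread between these libraries.

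In a postsynaptic density the proteins are stacked in layers. The membrane-associated guanylate kinases DLG4 (PSD-95) and DLG2 (PSD-93) hold NMDA receptors and other membrane proteins, DLGAP1 (GKAP) joins them to the SHANK proteins below, and the SHANK proteins bind Homer proteins and the actin skeleton. Homer proteins in turn tether metabotropic glutamate receptors and intracellular calcium channels. In the forebrain they are best known from the dendritic spines of glutamatergic neurons, and loss of 1 copy of SHANK3 underlies Phelan-McDermid syndrome.

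Promoter windows of the 3 HOMER genes are shown because HOMER3 and its relatives changed in opposite directions between the day-12 and day-6 controls (values further on). Each window runs from 250 bases before to 50 bases after a RefSeq gene start on GRCh38.p14, all on the minus strand, and is written 5′ to 3′. Of the 9 genes, 7 had 23 such windows in the RefSeq table, all but SHANK1 and SHANK2. Capitals mark the GC box, GGGCGG or CCGCCC, which 45.0% of all 35116 windows hold, and the E-box, CANNTG, a site bound by basic helix-loop-helix factors such as NEUROG2, which 68.7% hold. Both strands were searched, and overlapping matches were each counted.
HOMER1, chr5:79514085-79514384: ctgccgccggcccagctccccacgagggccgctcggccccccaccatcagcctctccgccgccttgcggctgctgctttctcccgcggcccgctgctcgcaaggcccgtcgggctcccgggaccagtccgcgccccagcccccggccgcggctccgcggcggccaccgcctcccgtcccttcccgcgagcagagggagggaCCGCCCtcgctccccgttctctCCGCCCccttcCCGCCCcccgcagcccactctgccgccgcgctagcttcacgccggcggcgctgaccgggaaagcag
HOMER2, chr15:82952671-82952970: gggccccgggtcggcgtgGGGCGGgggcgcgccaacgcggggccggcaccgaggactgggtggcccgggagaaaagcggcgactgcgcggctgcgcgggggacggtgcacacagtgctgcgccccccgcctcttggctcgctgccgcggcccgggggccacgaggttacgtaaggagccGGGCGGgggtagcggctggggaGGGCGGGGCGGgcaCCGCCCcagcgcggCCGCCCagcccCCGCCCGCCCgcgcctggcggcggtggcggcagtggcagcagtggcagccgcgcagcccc
HOMER3, outermost start, chr19:18941168-18941467: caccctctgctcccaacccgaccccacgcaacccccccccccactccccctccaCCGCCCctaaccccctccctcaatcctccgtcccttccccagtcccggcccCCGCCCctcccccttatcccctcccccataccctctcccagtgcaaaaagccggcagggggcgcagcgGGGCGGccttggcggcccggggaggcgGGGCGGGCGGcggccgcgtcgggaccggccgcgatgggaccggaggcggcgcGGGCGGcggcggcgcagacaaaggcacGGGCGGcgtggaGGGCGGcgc
HOMER3, inner start, chr19:18939586-18939885: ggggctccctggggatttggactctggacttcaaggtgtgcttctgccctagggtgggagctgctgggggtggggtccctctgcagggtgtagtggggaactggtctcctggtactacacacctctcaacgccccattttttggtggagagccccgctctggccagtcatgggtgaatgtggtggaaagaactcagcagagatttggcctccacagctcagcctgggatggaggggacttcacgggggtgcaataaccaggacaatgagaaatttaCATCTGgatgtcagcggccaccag
The HOMER1 window held 3 GC boxes, the HOMER2 window 8 and the outermost HOMER3 window 8, and none of the 3 held an E-box. The HOMER2 window lies inside the span given for that gene further on, which reaches 82986153. It is therefore not at the outermost annotated start of HOMER2. The inner HOMER3 window held no GC box and 1 E-box, CATCTG. The table has 2 further HOMER3 windows, not shown, which start between these and each hold 1 GC box and no E-box. That spelling, with CAGATG and CATATG, was in 17.1% of all windows and in 5 of the 23 windows of these genes. A match describes only the letters of a window, and binding was not measured.

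Libraries of the doxycycline set held 28443657 to 47159475 counted reads each, and FGF2 libraries 22802501 to 30014661. All 9 genes passed the filter on low counts that left 20142 genes for testing in the FGF2 set. NEUROG2 was at 1564 CPM with doxycycline and 1.34 CPM without it on day 5, while on day 11 it had 1018 CPM with and 6.26 CPM without doxycycline. CPM here means reads per 1000000 counted reads after TMM scaling within each set. ETV4, an FGF target gene, was at 98.2 ± 2.10 CPM with late FGF2 and 1.73 ± 0.819 CPM in its control (SD, n = 2 each), but at 3.14 ± 0.121 CPM with early FGF2 and 3.18 ± 0.0639 CPM in its control. The 2 early-FGF2 libraries stood apart from each other: the chi-square of their counts per degree of freedom was 19.0, against 2.87 to 3.26 in the other 3 pairs. Of the cell type markers, 6 of 6 neuronal genes summed to 9139 to 9429 CPM with doxycycline and to 42.6 to 269 CPM without it, and their sum was 7259 to 11435 CPM across the FGF2 libraries. Markers of GABAergic neurons summed to 0.215 to 1.45 CPM in the FGF2 set, and those of astroglia to 0.527 to 1.28 CPM.

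Where the genes lie bears on how their reads were counted. On GRCh38, DLG4 spans 32.7 kb of chromosome 17 (7187169 to 7219841, minus strand) and DLG2 spans 2172.9 kb of chromosome 11 (83455012 to 85627922, minus strand). DLGAP1 covers 959.3 kb of chromosome 18 (3496032 to 4455335, minus strand). SHANK1 is on chromosome 19 (50661827 to 50719450, minus strand), SHANK2 on chromosome 11 (70467856 to 71252577, minus strand) and SHANK3 on chromosome 22 (50674415 to 50733298, plus strand). HOMER1 lies on chromosome 5 (79372636 to 79514217), HOMER2 on chromosome 15 (82836946 to 82986153) and HOMER3 on chromosome 19 (18929201 to 18941261), all on the minus strand. Other annotated genes, HOMER3-AS1 and AC002985.1, overlap 21.2% of the exon bases of HOMER3. Overlap with the opposite strand covers 8.85%, and the library kit does not mark strand. The rest of the overlap lies on the same strand, where a kit that marks strand would not part the reads either. Reads of these genes therefore cannot be told apart there. In the other 8 genes the overlap was 0 to 2.08%.

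Per kilobase of merged exons, DLG4 had the highest level of the 9 genes in both doxycycline-treated libraries, in the day-5 control and in both day-12 groups. Its level there was 19.5 CPM per kb with doxycycline and 7.91 CPM per kb without it on day 5, 32.2 CPM per kb with doxycycline on day 11, and 25.7 CPM per kb in late-FGF2 and 26.9 CPM per kb in control cells on day 12. HOMER1 led at day 0 with 7.61 CPM per kb. HOMER3 led on day 6, at 41.6 CPM per kb with FGF2 and 37.5 CPM per kb without it, and in the day-11 control at 7.77 CPM per kb. DLG2 was lowest in 8 of the 9 groups, at 0.0936 to 0.685 CPM per kb, and SHANK1 was lowest at day 0 with 0.244 CPM per kb. Behind DLG4 in the day-12 control came SHANK1 at 8.44, SHANK3 at 8.22, HOMER3 at 7.64 and HOMER1 at 7.58 CPM per kb. The 2 libraries of SHANK1 and SHANK3 overlapped in level, as did those of HOMER3 and HOMER1. Those of SHANK1 (8.04 to 8.84) also overlapped those of HOMER3 (7.20 to 8.07), so this order is not settled. Those of SHANK3 (8.11 to 8.34) and HOMER3 lay next to each other without overlap. Merged exons include all annotated isoforms, and which isoforms were made was not measured.

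**Figure D1:**
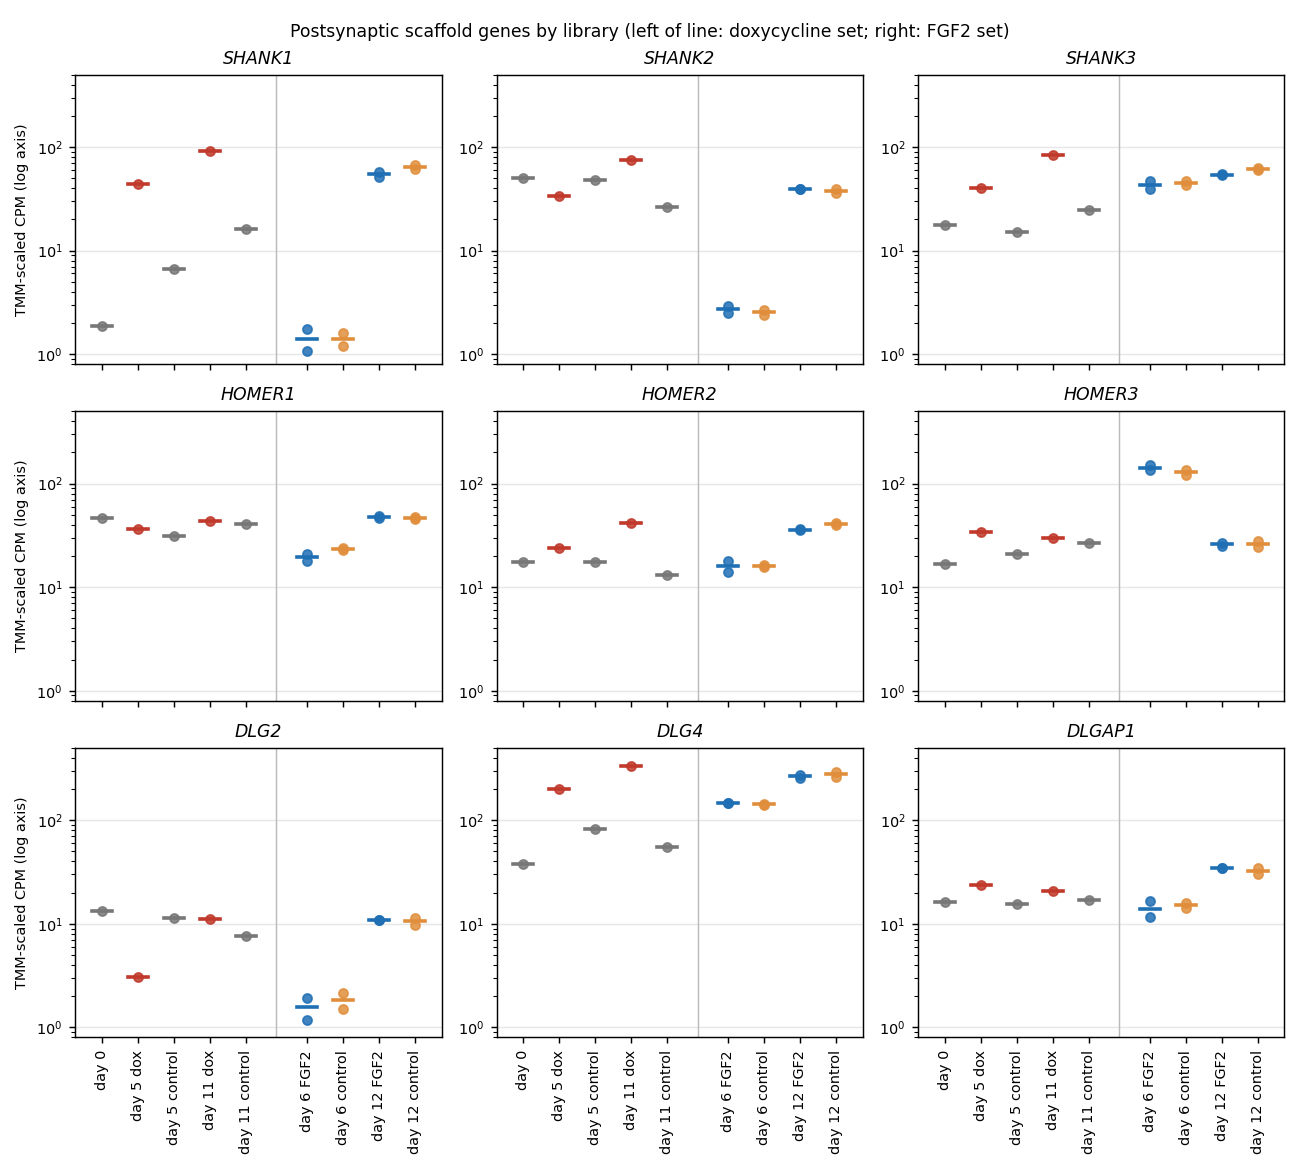
Level of each of the 9 genes in each of the 13 libraries, in TMM-scaled CPM on a log axis. Points are libraries, bars are group means, and the vertical line parts the separately scaled doxycycline set (red with doxycycline, grey without) from the FGF2 set (blue with FGF2, orange without). SHANK1, SHANK2 and DLG2 lie below 3.0 CPM in all 4 day-6 libraries of the FGF2 set, and HOMER3 lies between 122 and 151 CPM in the same libraries.

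With doxycycline on day 5, SHANK1, SHANK3 and DLG4 were at least 2-fold higher and DLG2 at least 2-fold lower than in the control, 4 of the 9 genes, where 49.6% of 17748 genes passed that fold. On day 11 with doxycycline, SHANK1, SHANK2, SHANK3, HOMER2 and DLG4 were at least 2-fold higher and none lower, 5 of 9 genes, where 45.0% of 17285 genes passed it and 22.7% did so upward. The median log2 ratio of the 9 genes, after adding 1 CPM to each level, was 0.60 on day 5 and 1.48 on day 11, against 0.11 and 0.08 over all genes. With 1 library per group no test was possible, and the intervals given below are exact binomial ones (95%) that cover counting error only. In bulk RNA, more cells that carry a transcript and more transcript per cell cannot be told apart. Marker sums of several cell types also differed with doxycycline, in both directions, beside those of neurons given above. On day 5, markers of dividing cells summed to 36.6 CPM with and 997 CPM without doxycycline, those of pluripotent stem cells to 544 and 2429 CPM in the same order, those of epithelium to 37.4 and 986 CPM, and those of mesenchyme to 22.7 and 947 CPM. On day 11 the sums were 13.6 and 1204 CPM for dividing cells, 165 and 1402 CPM for pluripotent stem cells, 40.7 and 771 CPM for epithelium, and 29.6 and 248 CPM for mesenchyme, with and without doxycycline. Of the day-11 stem cell sums, LIN28A gave 155 and 1196 CPM and DPPA4 4.27 and 167 CPM, in the same order. POU5F1 was then at 5.54 and 38.9 CPM, and NANOG at 0.121 and 0.181 CPM. Of the mesenchyme markers, COL3A1 went the other way on day 11, at 4.12 CPM with and 0.813 CPM without doxycycline. Neural progenitor markers summed to 1012 and 655 CPM on day 5 and to 516 and 620 CPM on day 11, with and without doxycycline. Oligodendroglia markers summed to 45.4 and 18.7 CPM on day 5 and to 49.2 and 5.09 CPM on day 11 in that order. Of these markers, SOX10 had 0 counts throughout. Markers of GABAergic neurons summed to 0.532 and 2.21 CPM on day 5 and to 0.697 and 20.9 CPM on day 11. The part of these cell types in the ratios was not tested.

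DLG4, the gene of PSD-95, was at 201 CPM with doxycycline and 81.6 CPM in the control on day 5, a ratio of 2.46 (2.35 to 2.57). On day 11 it was at 333 CPM with doxycycline and 55.8 CPM in the control, a ratio of 5.96 (5.68 to 6.27). DLG2, which encodes its close relative PSD-93, went the other way on day 5. It was at 3.07 CPM with doxycycline and 11.4 CPM in the control, a ratio of 0.268 (0.218 to 0.329). By day 11 DLG2 was at 11.0 CPM with doxycycline and 7.65 CPM in the control, a ratio of 1.44 (1.22 to 1.70). DLGAP1, the link between the DLG and SHANK layers, was at 23.7 CPM with and 15.4 CPM without doxycycline on day 5, and at 20.6 CPM with and 16.9 CPM without it on day 11.

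SHANK1 had the highest ratio on day 5, with 43.5 CPM under doxycycline and 6.64 CPM in the control, a ratio of 6.55 (5.68 to 7.59). On day 11 it was at 91.7 CPM under doxycycline and 16.1 CPM in the control, a ratio of 5.69 (5.19 to 6.25). SHANK3 stood at 40.5 CPM with doxycycline and 15.0 CPM in the control on day 5, a ratio of 2.69 (2.43 to 2.99), and at 82.9 CPM and 24.6 CPM on day 11 in the same order, a ratio of 3.37 (3.12 to 3.65). SHANK2 was lower with doxycycline on day 5, at 33.4 CPM against 48.0 CPM in the control, a ratio of 0.695 (0.646 to 0.748). It was higher on day 11, at 74.3 CPM with doxycycline and 26.0 CPM in the control, a ratio of 2.85 (2.64 to 3.09). With TMM scaling, SHANK2 and DLG2 were the only members of the 9 whose doxycycline ratio lay on opposite sides of 1 on the 2 days beyond counting error.

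HOMER1, the best known Homer gene of forebrain synapses, was at 36.1 CPM with and 31.3 CPM without doxycycline on day 5, and at 43.8 CPM with and 40.6 CPM without it on day 11, where its ratio of 1.08 had an interval that reached 1.00. HOMER2 was at 24.0 CPM with doxycycline and 17.4 CPM in the control on day 5. On day 11 it was at 41.6 CPM with doxycycline and 13.0 CPM in the control, a ratio of 3.20 (2.87 to 3.58). HOMER3 was at 34.0 CPM with and 20.9 CPM without doxycycline on day 5, a ratio of 1.62 (1.48 to 1.78), and at 29.5 CPM with and 26.6 CPM without it on day 11. Scaling by library totals in place of TMM lowered the median log2 ratio of all genes by 0.17 on day 5 and by 0.31 on day 11, and on day 11 it gave HOMER1, HOMER3 and DLGAP1 log2 ratios of -0.20, -0.15 and -0.03, against 0.11, 0.15 and 0.27 here. On that day it also left 38.6% of the genes past 2-fold on the higher side, against 50.5% here, while the count of scaffold genes past it stayed at 5.

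**Figure D2:**
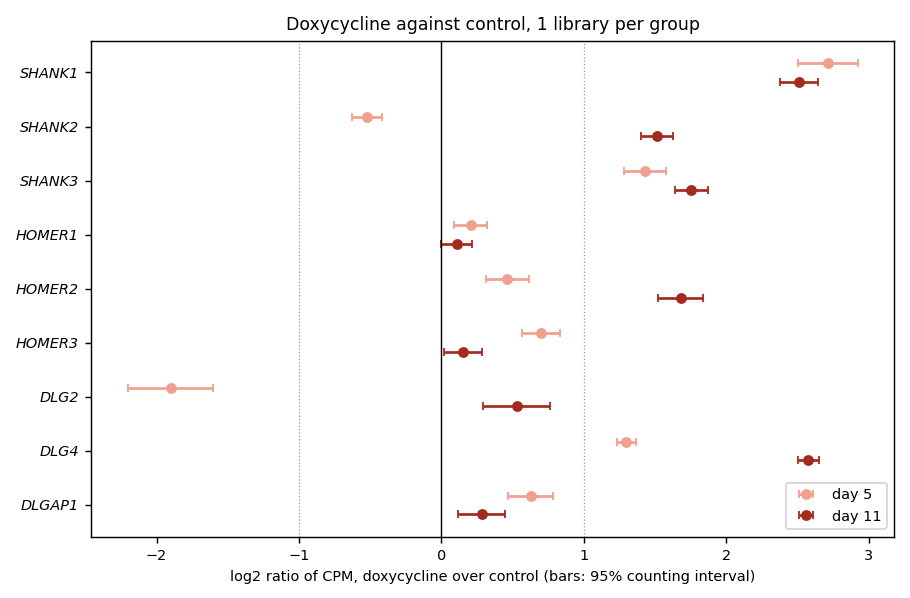
Log2 ratio of CPM, doxycycline over control, for the 9 genes on day 5 (light) and day 11 (dark). Bars are 95% intervals of counting error and dotted lines mark 2-fold. SHANK1 lies above 2-fold on both days, SHANK2 and DLG2 change side between the days, and HOMER1 lies near 0 on both.

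Within doxycycline-treated cells, day 11 and day 5 were also compared. SHANK1, SHANK2, SHANK3 and DLG2 were at least 2-fold higher on day 11, 4 of 9 genes, where 8.91% of 16022 genes passed that fold in either direction and 3.99% upward. The CPM values of both days are those given above, and the ratios were 2.11 (1.99 to 2.23) for SHANK1, 2.22 (2.08 to 2.38) for SHANK2, 2.05 (1.93 to 2.18) for SHANK3 and 3.59 (2.93 to 4.43) for DLG2. The 3 SHANK ratios lay close to the 2-fold line, and with 2 CPM added in place of 1 the count was 3. Of all genes past 2-fold, 44.8% were higher on day 11, and 54.0% with library totals. DLG4 had a ratio of 1.66 (1.61 to 1.71) and HOMER2 one of 1.74 (1.60 to 1.88). HOMER3, with a ratio of 0.869, and DLGAP1, with one of 0.867, were lower on day 11.

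Cells without doxycycline carried most of these transcripts too. At day 0 the stem cells had 50.2 CPM of SHANK2, 46.8 CPM of HOMER1, 38.1 CPM of DLG4 and 1.85 CPM of SHANK1, and the other 5 genes lay between 13.3 and 17.7 CPM. On day 5 without doxycycline, SHANK1 and DLG4 were at least 2-fold higher than at day 0, 2 of 9 genes, where 10.9% of 16932 genes passed that fold, 6.63% upward and 4.25% downward. SHANK1 was at 6.64 CPM on day 5 and 1.85 CPM at day 0, a ratio of 3.59 (2.74 to 4.75), and DLG4 was at 81.6 CPM and 38.1 CPM in the same order, a ratio of 2.14 (2.01 to 2.28). DLG4 fell short of 2-fold when libraries were scaled by their totals, with a log2 ratio of 0.98. On day 11 without doxycycline, SHANK1 was at 16.1 CPM, against 6.64 CPM on day 5, the only 1 of the 9 genes past 2-fold where 25.5% of 17312 genes were. SHANK2 was then at 26.0 CPM, against 48.0 CPM on day 5, a ratio of 0.542 (0.498 to 0.589). With library totals, 47.9% of the genes past 2-fold were higher on day 5 than at day 0, against 60.9% here, and 58.0% were higher on day 11 than on day 5, against 41.5% here.

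The FGF2 set allowed a test of time after induction. Between the control cells of day 12, which had spent 6 days without doxycycline, and those of day 6, all 9 scaffold genes changed: 8 rose and HOMER3 fell (edgeR quasi-likelihood test, Benjamini-Hochberg adjusted p under 0.05). The change was widespread, since 64.0% of the 20142 genes passed the same test, 31.7% upward and 32.3% downward. The median log2 change was 1.09 over the 9 genes and -0.0045 over all genes tested. Time and the withdrawal of doxycycline cannot be told apart in this comparison. NEUROG2 itself was at 52.0 ± 3.76 CPM on day 12 and 7626 ± 116 CPM on day 6 (SD, n = 2 each). Over the same libraries, the markers of dividing cells summed to 1.30 to 2.48 CPM on day 12 and 272 to 325 CPM on day 6, those of neural progenitors to 537 to 574 CPM and 1496 to 1500 CPM in the same order, and those of neurons to 11225 to 11435 CPM and 7399 to 7569 CPM. The 2 markers of glutamatergic neurons summed to 382 to 426 CPM on day 12 and 600 to 614 CPM on day 6. Of them, the vesicular transporter gene SLC17A7 was at 51.1 ± 0.439 CPM on day 12 and 516 ± 0.270 CPM on day 6, and SLC17A6 was at 353 ± 31.0 CPM on day 12 and 90.5 ± 9.32 CPM on day 6. Among the 6 neuronal markers, TUBB3 was at 130 ± 8.71 CPM on day 12 and 266 ± 37.5 CPM on day 6, and ELAVL3 was at 472 ± 15.7 CPM on day 12 and 974 ± 2.80 CPM on day 6. Markers of mesenchyme summed to 6.65 to 6.74 CPM on day 12 and 35.2 to 37.3 CPM on day 6, and those of pluripotent stem cells to 109 to 120 CPM and 218 to 219 CPM. Of the stem cell markers, LIN28A was at 108 and 119 CPM on day 12 and 140 and 147 CPM on day 6. DPPA4 was at 0.122 and 0.256 CPM on day 12 and 78.8 and 71.4 CPM on day 6. POU5F1 and NANOG were at 0 to 0.0860 CPM in the control libraries of both days. The part of these cell types in the changes was not tested.

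Among the guanylate kinases, DLG4 had 291 and 264 CPM in the day-12 control libraries, against 140 and 144 CPM in those of day 6. Its log2 change was 0.97 ± 0.08 (SE), with an adjusted p of 3.39e-08. DLG2 had 11.4 and 9.82 CPM on day 12 and 2.15 and 1.5 CPM on day 6, a log2 change of 2.54 ± 0.22 (adjusted p = 6.23e-08). DLGAP1 had 34.4 and 30.0 CPM on day 12 and 15.9 and 14.2 CPM on day 6, a log2 change of 1.09 ± 0.14 (adjusted p = 5.40e-06). In each of these 3 genes both day-12 libraries lay above both day-6 libraries.

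The SHANK genes differed most among themselves. SHANK1 had 66.9 and 60.9 CPM in the day-12 controls, against 1.59 and 1.20 CPM in the day-6 controls, where it rested on 37 and 28 reads. The fitted change was 45.6-fold, or 5.51 ± 0.17 on the log2 scale (adjusted p = 3.76e-13). SHANK2 had 35.9 and 39.1 CPM on day 12 and 2.41 and 2.66 CPM on day 6, a 14.8-fold rise (log2 change 3.89 ± 0.13, adjusted p = 1.22e-12). SHANK3 was already present on day 6, with 62.2 and 60.4 CPM on day 12 and 46.5 and 42.8 CPM on day 6, a 1.37-fold rise (log2 change 0.46 ± 0.10, adjusted p = 0.000621). Per kilobase, SHANK3 therefore made up 44.1% ± 0.557 of the summed SHANK level on day 12 and 94.9% ± 0.126 on day 6, and SHANK1 45.2% ± 1.55 on day 12 and 2.91% ± 0.404 on day 6 (SD, n = 2 each). The summed SHANK level was 18.7 ± 0.606 CPM per kb on day 12 and 6.31 ± 0.371 CPM per kb on day 6.

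In the Homer family, HOMER1 had 47.8 and 45.5 CPM on day 12 and 23.1 and 23.6 CPM on day 6, a log2 change of 1.00 ± 0.10 (adjusted p = 2.89e-07). HOMER2 had 40.0 and 41.9 CPM on day 12 and 15.8 and 16.4 CPM on day 6, a log2 change of 1.35 ± 0.11 (adjusted p = 5.64e-08). HOMER3, known in rodents mainly from cerebellar Purkinje cells, fell to 24.7 and 27.6 CPM on day 12, against 135 and 122 CPM on day 6. Its log2 change was -2.30 ± 0.10 (adjusted p = 1.35e-11), so that its level on day 6 was 4.92 times that of day 12. HOMER3 supplied 42.4% ± 2.38 of the summed Homer level per kilobase on day 12 and 88.4% ± 0.893 on day 6. The summed Homer level was 18.0 ± 0.436 CPM per kb on day 12 and 42.4 ± 2.49 CPM per kb on day 6, while HOMER1 and HOMER2 both rose.

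**Figure D3:**
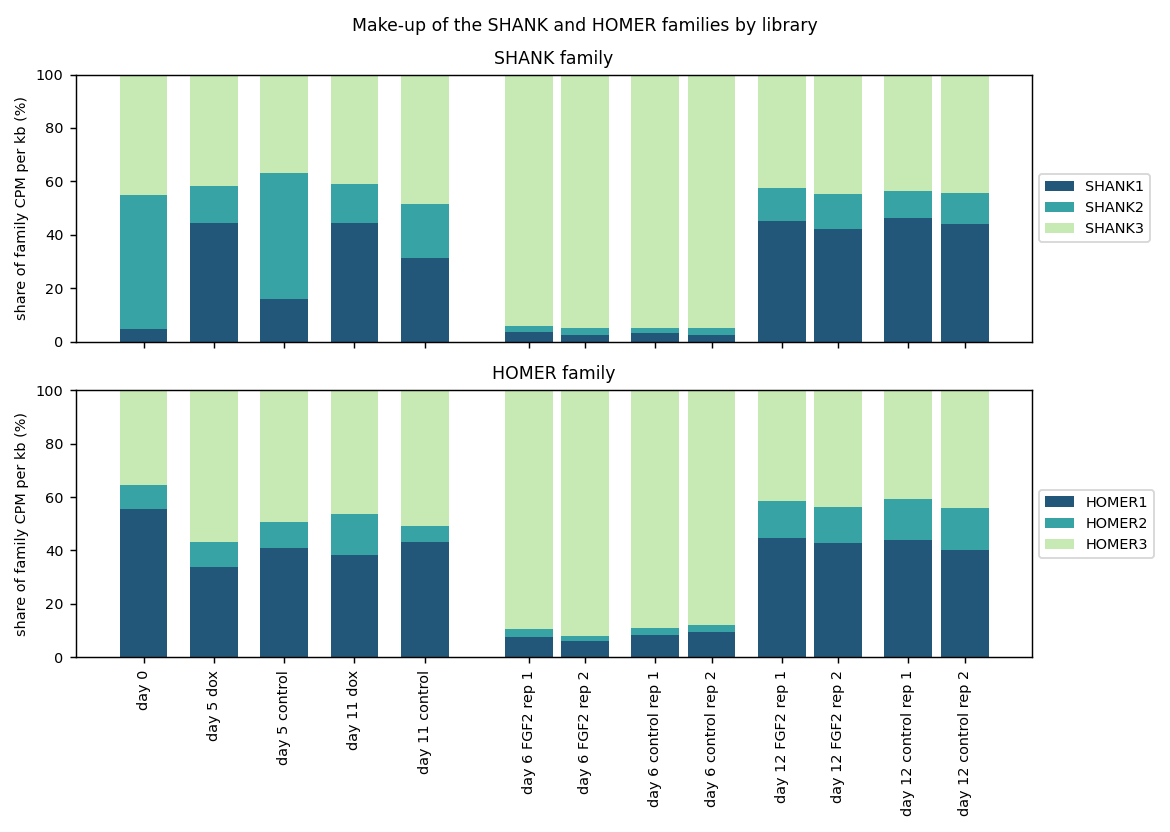
Share of each gene in the summed SHANK level (top) and the summed Homer level (bottom), in CPM per kilobase of merged exons, for each library. The 5 bars on the left are the doxycycline set and the 8 on the right the FGF2 set. SHANK3 and HOMER3 fill most of their families in the 4 day-6 libraries and about as much as SHANK1 and HOMER1 in the 4 day-12 libraries.

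With late FGF2, 0 of the 9 scaffold genes passed the test against the day-12 control, where 2.17% of 20142 genes did, 1.63% upward and 0.536% downward. In all 437 genes were called, with 2151 at an unadjusted p under 0.05. The median log2 change of the 9 scaffold genes was -0.01, against 0.00 over all genes. SHANK1 was lower with late FGF2, at 57.1 and 51.6 CPM against 66.9 and 60.9 CPM in the control, and the groups did not overlap. Its log2 change was -0.23 ± 0.11 (SE), with an adjusted p of 0.472 in edgeR fitted to all 8 libraries. A fit to the 4 day-12 libraries alone, which called more than 437 genes (count further on), gave a log2 change of -0.23 with an adjusted p of 0.0345. In the authors' deposited table the log2 fold change of SHANK1 was -0.24 with an adjusted p of 0.0315 by limma, and it was -0.21 with an adjusted p of 0.0862 by DESeq2. Of the 17705 genes there, limma called 1306 and DESeq2 834 at an adjusted p under 0.05.

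SHANK3 had 53.2 and 54.2 CPM with late FGF2 and 62.2 and 60.4 CPM in the control, a log2 change of -0.19 ± 0.09 (adjusted p = 0.498). HOMER2 had 36.4 and 35.6 CPM with late FGF2 and 40.0 and 41.9 CPM in the control, a log2 change of -0.19 ± 0.11 (adjusted p = 0.591). In both genes the libraries of the groups did not overlap, yet neither difference passed the test. SHANK2 had a log2 change of 0.07 ± 0.10 and DLGAP1 one of 0.11 ± 0.13. The groups of SHANK2 and DLGAP1 did not overlap either, with both late-FGF2 libraries above both control libraries. The share of all genes whose groups did not overlap was not counted, so the lack of overlap, here and for SHANK1, is not read as a difference. The changes of HOMER1, HOMER3, DLG2 and DLG4 lay between -0.06 and 0.03, with standard errors of 0.08 to 0.17. SHANK1 made up 43.5% ± 2.08 of the summed SHANK level with late FGF2 and 45.2% ± 1.55 in the control.

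Early FGF2 gave 0 called genes of 9 and 0 of 20142, so 0% of all genes passed the edgeR test, with 658 at an unadjusted p under 0.05. DESeq2 and limma voom on the same libraries also called 0. HOMER1 had the lowest p of the 9, with 20.9 and 18.1 CPM under early FGF2 and 23.1 and 23.6 CPM in the control. Its log2 change was -0.26 ± 0.10 (adjusted p = 0.927). HOMER3 had 134 and 151 CPM with early FGF2 and 135 and 122 CPM in the control, and its groups overlapped (log2 change 0.15 ± 0.09). SHANK1 and SHANK2 stayed near the bottom of their range, with 1.73 and 1.07 CPM of SHANK1 under early FGF2 and 1.59 and 1.20 CPM in the control. With each of the 4 day-6 libraries left out in turn, the log2 change of HOMER1 ran from -0.37 to -0.16. That of HOMER3 ran from 0.062 to 0.24. The count of called genes depended on which of the 2 early-FGF2 libraries was left out. The remaining early-FGF2 library is then assumed to vary like the other groups.

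The difference between the late and the early effect of FGF2 was tested as an interaction. It called 0 of the 9 genes, where 0.730% of all genes passed, 0.645% upward and 0.0844% downward. HOMER1 had the lowest adjusted p of the 9, at 0.678, with a difference of 0.30 ± 0.14 (log2). For the other 8 genes the difference lay between -0.25 and 0.24, with standard errors of 0.11 to 0.32.

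**Figure D4:**
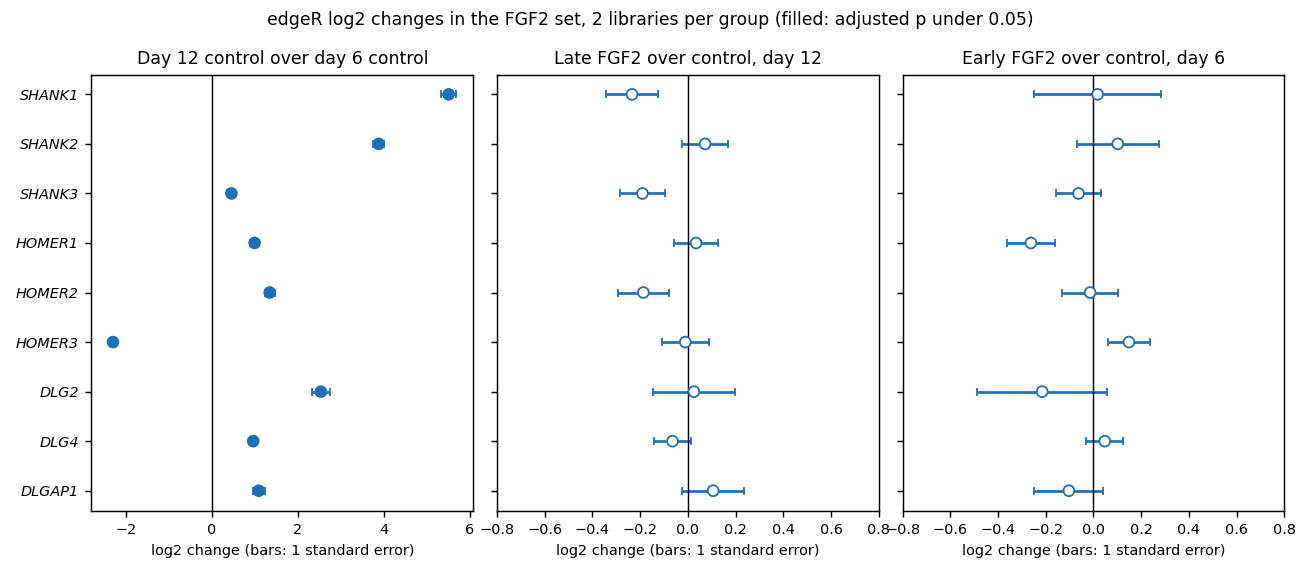
Log2 change of each gene by edgeR in the FGF2 set, with 1 standard error as the bar, for day-12 over day-6 control cells, late FGF2 over control and early FGF2 over control. Filled points passed an adjusted p of 0.05. All 9 genes are filled in the left panel, which has its own, wider axis, and none in the other 2, where the changes lie between -0.26 and 0.15.

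The wider postsynaptic density was described by 57 further genes in 6 lists, of which 56 passed the filter in the FGF2 set. Between day 12 and day 6 control cells, 37 of the 56 rose and 13 fell, where 31.7% of all genes rose and 32.3% fell, with a median log2 change of 0.86, against -0.0045 over all genes. Other guanylate kinase scaffolds rose in 10 of 12 cases and fell in 0, led by MAGI2 (93.4 ± 6.90 CPM on day 12 and 28.5 ± 0.879 CPM on day 6), DLG5 and MPP3, with log2 changes of 1.71, 1.39 and 1.80. Of the 14 enzymes and GTPase regulators, 9 rose and 4 fell. CAMK2A, the alpha subunit of the calcium-dependent kinase CaMKII, was at 32.1 ± 0.108 CPM on day 12 and 0.730 ± 0.181 CPM on day 6, and TNIK, a kinase found in postsynaptic densities, was at 109 ± 8.11 CPM and 4.23 ± 0.946 CPM in the same order. CAMK2G had a log2 change of 1.97. Of the 15 adaptors, 10 rose and 4 fell, and CNKSR2, PRR7 and LRRC7 rose by 2.69, 3.53 and 3.00 on the log2 scale.

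Among the 4 other DLGAP genes 2 rose and 1 fell. DLGAP2 (4.39 ± 0.0710 CPM on day 12 and 0.558 ± 0.0602 CPM on day 6) and DLGAP3 (56.5 ± 1.87 CPM and 30.9 ± 0.242 CPM in the same order) rose, like DLGAP1. DLGAP5, which encodes a protein of the mitotic spindle, fell to 0.205 ± 0.169 CPM on day 12, against 27.8 ± 1.88 CPM on day 6. Of the 10 Homer ligands 9 were measured, 4 rose and 4 fell. The calcium release channel genes RYR1 and ITPR2 fell with HOMER3, RYR1 to 2.78 ± 0.252 CPM on day 12, against 151 ± 7.50 CPM on day 6, and ITPR2 to 1.08 ± 0.137 CPM, against 112 ± 8.68 CPM. GPHN, which encodes gephyrin, the main scaffold of inhibitory synapses, rose to 116 ± 2.87 CPM on day 12, against 44.3 ± 0.988 CPM on day 6, a log2 change of 1.39.

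Late FGF2 changed 1 of these 56 genes, where 2.17% of all genes were called, so the share is near that of all genes. LRRC7, which encodes the adaptor densin-180, fell to 21.9 ± 0.408 CPM with late FGF2, against 30.8 ± 4.17 CPM in the control (SD, n = 2 each; log2 change -0.49 ± 0.12, adjusted p = 0.0468). Leaving out any of the 4 day-12 libraries in turn ended that call, with adjusted p from 0.0600 to 0.599 and log2 changes from -0.61 to -0.35. Early FGF2 and the difference between the effects called 0 of the 56. With doxycycline, 28 of the 56 genes at 2 CPM or more were at least 2-fold higher and 8 lower on day 5, with a median log2 ratio of 1.00, where 26.0% of all genes were higher and 23.6% lower, with a median of 0.11. On day 11, 30 were higher and 7 lower, with a median of 1.16, where 22.7% of all genes were higher and 22.3% lower, with a median of 0.08. CAMK2B stood out by the size of its ratio, with 56.5 CPM under doxycycline and 0.436 CPM in the control on day 5, and 120 CPM and 0.331 CPM in the same order on day 11. KALRN, which encodes kalirin, a regulator of dendritic spine shape, was at 289 CPM with and 8.60 CPM without doxycycline on day 5. ITPR3 was at 1.26 CPM with and 91.0 CPM without it, and DLGAP5 at 4.81 CPM with and 139 CPM without it.

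The sets met at similar culture times but did not show the same levels early on. Doxycycline-treated cells of day 5 had 43.5 CPM of SHANK1, and the day-6 controls of the FGF2 set, which also had doxycycline throughout, had 1.20 to 1.59 CPM. SHANK2 was at 33.4 CPM on day 5 and 2.41 to 2.66 CPM on day 6, and HOMER3 at 34.0 CPM on day 5 and 122 to 135 CPM on day 6. By the ratio between the sets, SHANK1, SHANK2, HOMER1, HOMER2, HOMER3, DLG2 and DLG4 lay closer at the later time. SHANK3 lay further apart, 1.10-fold at the earlier time and 1.35-fold at the later. DLGAP1 differed 1.57-fold at both times, higher in the doxycycline set early and in the FGF2 set late. For the doxycycline-treated cells of day 11 and the day-12 controls, SHANK1 was at 91.7 CPM and 60.9 to 66.9 CPM, HOMER1 at 43.8 CPM and 45.5 to 47.8 CPM, and HOMER3 at 29.5 CPM and 24.7 to 27.6 CPM. SHANK2 was at 74.3 CPM on day 11 and 35.9 to 39.1 CPM on day 12, and DLGAP1 at 20.6 CPM and 30.0 to 34.4 CPM. SHANK3 was at 40.5 CPM on day 5 and 42.8 to 46.5 CPM on day 6, but at 82.9 CPM on day 11 and 60.4 to 62.2 CPM on day 12. NEUROG2 had 1564 CPM on day 5, against 7544 to 7708 CPM on day 6, and 1018 CPM under continued doxycycline on day 11, against 49.3 to 54.7 CPM on day 12 without it. The sets were scaled separately and sequenced in different runs, and their titles name different cells (hES-N1 in the doxycycline set, hES-N2G1 and hES-N2G2 in the FGF2 set). Day, run, cell name and doxycycline schedule cannot be told apart, so these values are set side by side with no test.

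Over the 9 group means of log2(CPM + 1), 27 of the 36 pairs of scaffold genes had a positive Pearson r, with a median of 0.50. The lowest was -0.95, between SHANK2 and HOMER3, and the highest 0.91, between SHANK3 and DLG4. Among 12660 genes with at least 5 CPM in a group of each set, the genes most like DLG4 were SYNGR1 (r = 0.995), a synaptic vesicle gene, and SULT4A1 (0.992), and the genes most like HOMER2 were HRK (0.991) and GALNT13 (0.989). TNIK was the gene most like HOMER1 (0.973), FCHSD2 most like SHANK1 (0.985), CYB561 most like SHANK2 (0.987) and ZNF565 most like SHANK3 (0.993). HOMER3 was most like CPPED1 (0.977), DLG2 most like PDE4A (0.988) and DLGAP1 most like DCBLD2 (0.976). The 9 points share libraries, runs and culture times and were chosen from many genes, so these values are a description only.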

How the data were processed

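RNA of 13 libraries was read with an unstranded kit and 50-cycle single-end reads, per the labels. Raw counts for every gene were deposited in 1 table per set; the submitters' processing notes name Subread, featureCounts 1.5.0 and GRCh38, and the annotation release is not given in the sources used here. A deposited table of normalized signal covers the doxycycline set. Deposited tables from DESeq2 and limma give each gene's log2 fold change, p-value and adjusted p for the FGF2 set; their 16 columns of per-library values were not used.

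The 8 FGF2 libraries were fitted together in edgeR 4.0.16 (R 4.3.3), with filterByExpr, TMM scaling and a mean for each of the 4 groups. Quasi-likelihood tests were two-sided, with Benjamini-Hochberg adjustment over all 20142 genes, and the code was checked on simulated data. The 5 doxycycline libraries were scaled by TMM and compared as log2 ratios after adding 1 CPM, keeping genes that reached 2 CPM in at least 1 of the pair. Intervals are 95% exact (Clopper-Pearson) and cover counting error only. Exon lengths and coordinates came from GENCODE 29 (GRCh38), and promoter windows from RefSeq (GRCh38.p14). Descriptions of the day-12 controls state 6 days of growth, while their titles and listed periods give 12. Alternatives were DESeq2 1.42.0, limma voom 3.58.1, other scalings, filters, pseudocounts and folds, a replicate block and leaving out libraries.

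The 9 genes and the other lists were chosen with earlier results of these data known. All 9 were named. From the other lists, up to 3 called genes of smallest p were eligible for naming in late FGF2 and in day 12 against day 6, and up to 2 of the largest mean ratio per list in the doxycycline set. For likeness, the 2 genes of highest r per member were eligible. Some genes that this rule gives are not reported here.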

Additional observations from a re-analysis of the deposited data

Results flagged for a closer look

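SHANK2 and DLG2 were set apart because their doxycycline ratio pointed in opposite directions on the 2 days, with counting intervals that did not include 1. For SHANK2 the ratio of doxycycline-treated to control cells was 0.695 on day 5 and 2.85 on day 11. For DLG2 it was 0.268 on day 5 and 1.44 on day 11. The difference between the days was not tested, since each group has 1 library. Both controls also moved: without doxycycline SHANK2 was at 26.0 CPM on day 11, against 48.0 CPM on day 5, and DLG2 at 7.65 CPM on day 11, against 11.4 CPM on day 5. When libraries were scaled by their totals, the log2 ratios were -0.67 and 1.18 for SHANK2 and -1.73 and 0.20 for DLG2, on day 5 and day 11. No counting intervals were computed for that scaling. Under it the day-11 ratios of HOMER1, HOMER3 and DLGAP1 also lay below 1, so the choice of these genes holds for TMM scaling only.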

How the results depend on the processing

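Between day 12 and day 6 all 9 scaffold genes and 17 genes taken from the other lists by the naming rule kept their direction and call in each alternative run, with 11217 to 11420 genes called when a library was left out. Late FGF2 called 437 genes; the count was 656 with no filter on low counts, 1338 with only the 4 libraries compared (1 scaffold gene, SHANK1) and 184 to 219 with a library left out, and SHANK1 had an adjusted p of 0.0345 in the 4-library fit and from 0.275 upward in its other alternatives. Early FGF2 called 0 genes, but 0 to 2523 genes and 0 to 2 scaffold genes with a library left out. The difference between the effects called 147 genes, 268 with no filter and 78 to 1345 with a library left out. Leaving out a library turned the sign of uncalled changes: for late FGF2 HOMER1 ran from -0.0056 to 0.0793, HOMER3 from -0.0828 to 0.0686, DLG2 from -0.0841 to 0.15 and DLG4 from -0.14 to 0.0184; for early FGF2 SHANK1 from -0.37 to 0.31, SHANK2 from -0.0061 to 0.20, SHANK3 from -0.19 to 0.0581, HOMER2 from -0.20 to 0.15, DLG2 from -0.62 to 0.0917 and DLGAP1 from -0.37 to 0.13; for the difference SHANK1 from -0.55 to 0.14, SHANK2 from -0.13 to 0.0803, SHANK3 from -0.25 to 0.0009, HOMER2 from -0.34 to 0.0164, DLG2 from -0.0652 to 0.64 and DLGAP1 from -0.018 to 0.48. SHANK1 was at -0.0115 for early FGF2 by limma voom. The causes were not tested. With the replicate number as a block, late FGF2 called 598 genes, early FGF2 0, the difference 206 and day 12 over day 6 13200, and no call of a scaffold gene changed; deviations of same-numbered libraries, which also share a cell name, correlated at 0.00547 to 0.358, with 3 of 6 pairs of groups over 0.1, and whether the numbers pair the libraries is not settled.

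In the doxycycline set a 4-fold limit, which is stricter by construction, left 3823 genes and 1 scaffold gene (doxycycline, day 5), 3294 and 2 (doxycycline, day 11), 155 and 0 (control, day 5 against day 0), 1143 and 0 (control, day 11 against day 5) and 270 and 0 (doxycycline, day 11 against day 5). At least 10 CPM, which tests fewer genes, left 1186, 2844 and 909 genes in the last 3 comparisons, and 1 scaffold gene for day 5 control against day 0. Library totals left 1 scaffold gene there. The authors' deposited normalized values also left 1, but they say nothing about stability, since the factor of DLG4 in them was 0.879 in the day-5 control and 1.05 at day 0. In the authors' normalized values the ratio to the raw count took 6 values, 0.839 to 1.19, each in at least 16.2% of the genes over 500 counts in every library. With 1 library per group, no value of this set has a replicate, and SHANK1, SHANK2 and DLG2 rest on 28 to 84 reads per library on day 6, which widens their standard errors.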
